A study of Mus musculus with 8 samples.

Results

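Macrophages of the heart were followed through 10 marker genes, chosen by symbol from a count table of 24516 genes: Csf1r, Adgre1, Cd68, C1qa, C1qb, C1qc, Mrc1, Lyve1, Cd163 and Cx3cr1. All 10 were in the table, and all 10 passed the filter on low counts. The hearts came from mice of 1 litter at postnatal day 40, and each gave 1 bulk RNA-sequencing library. Homozygous mice (n = 3) carried a CRISPR/Cas9 deletion of a conserved Actn2 enhancer on both alleles, heterozygous mice (n = 3) carried it on 1 allele, and wild-type mice (n = 2) had an intact enhancer. The labels do not give strain, sex or the number of founders. In the study the comparison addresses what the enhancer of Actn2, the gene of the main Z-disc crosslinker of heart muscle, does in the animal.

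Resident macrophages settle in the heart before birth, renew themselves locally, clear debris and dying mitochondria of cardiomyocytes and lie along vessels and the conduction system. They depend on signalling through the receptor CSF1R and on the transcription factor PU.1, the product of Spi1. A subset that marks long-lived tissue macrophages carries the hyaluronan receptor LYVE1, the mannose receptor MRC1 and the haemoglobin scavenger receptor CD163, while C1q, made largely by macrophages in most tissues, starts the classical complement pathway. In bulk hearts, fewer macrophages and less RNA per macrophage cannot be told apart.

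Libraries held 22230090 to 55902737 counts, with heterozygous 1 the shallowest. Cardiomyocyte genes were abundant in every library. The sum of Myh6, Tnnt2, Actc1, Myl2, Myl3 and Ttn was 59720 to 67866 CPM in homozygous and 59239 to 62541 in heterozygous hearts. In wild-type hearts it was 72254 to 80877 CPM. The genes did not change together. Against wild type, log2 fold changes in homozygous and heterozygous hearts were 0.83 and 0.76 for Ttn, -1.06 and -0.91 for Myl2, and 0.12 and -0.05 for Actc1. Those of Myl3, Tnnt2 and Myh6 were -0.48 to -0.34 and -0.60 to -0.39. Myl2 had 9128 CPM in wild type 1 and 19551 CPM in wild type 2. CPM here are counts scaled to a library of 1e6 after TMM, which assumes that most genes do not change. Actn2 averaged 1839 ± 256 CPM in homozygous, 1626 ± 74.4 CPM in heterozygous and 2445 ± 365 CPM in wild-type hearts (SD, n = 3, 3 and 2). It was lower in heterozygous than in wild-type hearts by edgeR's quasi-likelihood test (log2 fold change -0.59, adjusted p = 0.0193), and its adjusted p in homozygous against wild-type hearts was 0.0771. The wild-type libraries correlated less with each other (r = 0.952 across genes) than pairs of deletion libraries did (0.969 to 0.982), and wild type 2 stood farthest from the deletion libraries (0.927 to 0.935). Xist, the RNA of the inactive X chromosome, was abundant in homozygous 2, heterozygous 2, heterozygous 3 and wild type 2 only, so each genotype held both sexes.

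The markers did not move as a block. Adgre1 and Cd163 were higher and C1qa and C1qb lower in homozygous than in wild-type hearts. Adgre1, Mrc1 and Cd163 were higher and C1qa lower in heterozygous than in wild-type hearts. In homozygous hearts 2 of 10 markers were higher and 2 lower, against 15.3% and 12.4% of 15075 tested genes (27.7% in either direction). In heterozygous hearts 3 of 10 were higher and 1 lower, against 15.2% and 12.8% of genes (28.0% in either direction), and the 2 comparisons share their wild-type libraries. Homozygous and wild-type libraries did not overlap for 6 of 10 markers, against 54.8% of genes, and heterozygous and wild-type libraries for 4 of 10, against 51.3%. The median log2 fold change of the 10 was 0.02 in homozygous and 0.01 in heterozygous hearts, against -0.03 over all tested genes in each. Calls are edgeR quasi-likelihood tests with Benjamini-Hochberg adjustment over all tested genes at 0.05. Their p-values measure only the spread between these samples.

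Promoters of 6 markers were in the RefSeq table for GRCm38.p6 (250 bases before to 50 after the start). Those of C1qb and C1qc, neighbours on chromosome 4 whose profiles across libraries lay close together, and of Mrc1 and Cd163, receptors that were higher in deletion hearts in at least 1 comparison, are shown. The letters GAGGAA, the purine-rich box after which PU.1 was named, or their reverse complement TTCCTC, are in capitals. C1qb (chr4:136886151-136886450, minus strand), C1qc (chr4:136892865-136893164, minus strand), Mrc1 (chr2:14229164-14229463, plus strand) and Cd163 (chr6:124304401-124304700, plus strand) read, 5′ to 3′:
C1qb: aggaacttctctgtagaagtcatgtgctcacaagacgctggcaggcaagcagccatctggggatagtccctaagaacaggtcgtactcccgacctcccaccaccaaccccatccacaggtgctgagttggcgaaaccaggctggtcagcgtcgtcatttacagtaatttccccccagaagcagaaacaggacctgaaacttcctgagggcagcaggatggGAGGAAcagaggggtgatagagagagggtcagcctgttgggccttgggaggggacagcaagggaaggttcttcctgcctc
C1qc: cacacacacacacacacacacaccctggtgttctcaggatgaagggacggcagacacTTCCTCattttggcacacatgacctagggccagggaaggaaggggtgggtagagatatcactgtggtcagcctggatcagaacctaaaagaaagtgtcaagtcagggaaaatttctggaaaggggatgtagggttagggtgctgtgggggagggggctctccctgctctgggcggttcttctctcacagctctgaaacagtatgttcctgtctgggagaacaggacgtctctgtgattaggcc
Mrc1: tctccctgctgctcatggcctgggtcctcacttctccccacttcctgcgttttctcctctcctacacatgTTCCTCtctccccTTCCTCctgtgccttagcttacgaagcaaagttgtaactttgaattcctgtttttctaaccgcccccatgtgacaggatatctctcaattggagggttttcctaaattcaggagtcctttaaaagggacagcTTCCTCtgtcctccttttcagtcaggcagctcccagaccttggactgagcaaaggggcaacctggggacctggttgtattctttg
Cd163: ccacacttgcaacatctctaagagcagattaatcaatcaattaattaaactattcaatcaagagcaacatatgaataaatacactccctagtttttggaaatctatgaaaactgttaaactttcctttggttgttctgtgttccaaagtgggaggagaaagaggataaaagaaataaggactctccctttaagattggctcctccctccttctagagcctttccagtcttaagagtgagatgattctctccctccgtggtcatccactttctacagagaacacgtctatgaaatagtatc
The letters occurred 1 time in the C1qb window, 1 time in C1qc, 3 times in Mrc1 and 0 times in Cd163, with no overlaps. Among the others in the table, Cd68 held 2 and Cx3cr1 held 0. Of 32851 promoters of this length, 28.3% held the letters on either strand, so a match is common and says nothing of binding. GC content of the windows was 56.3% for C1qb, 53.3% for C1qc, 50.3% for Mrc1 and 38.0% for Cd163.

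**Figure D1:**
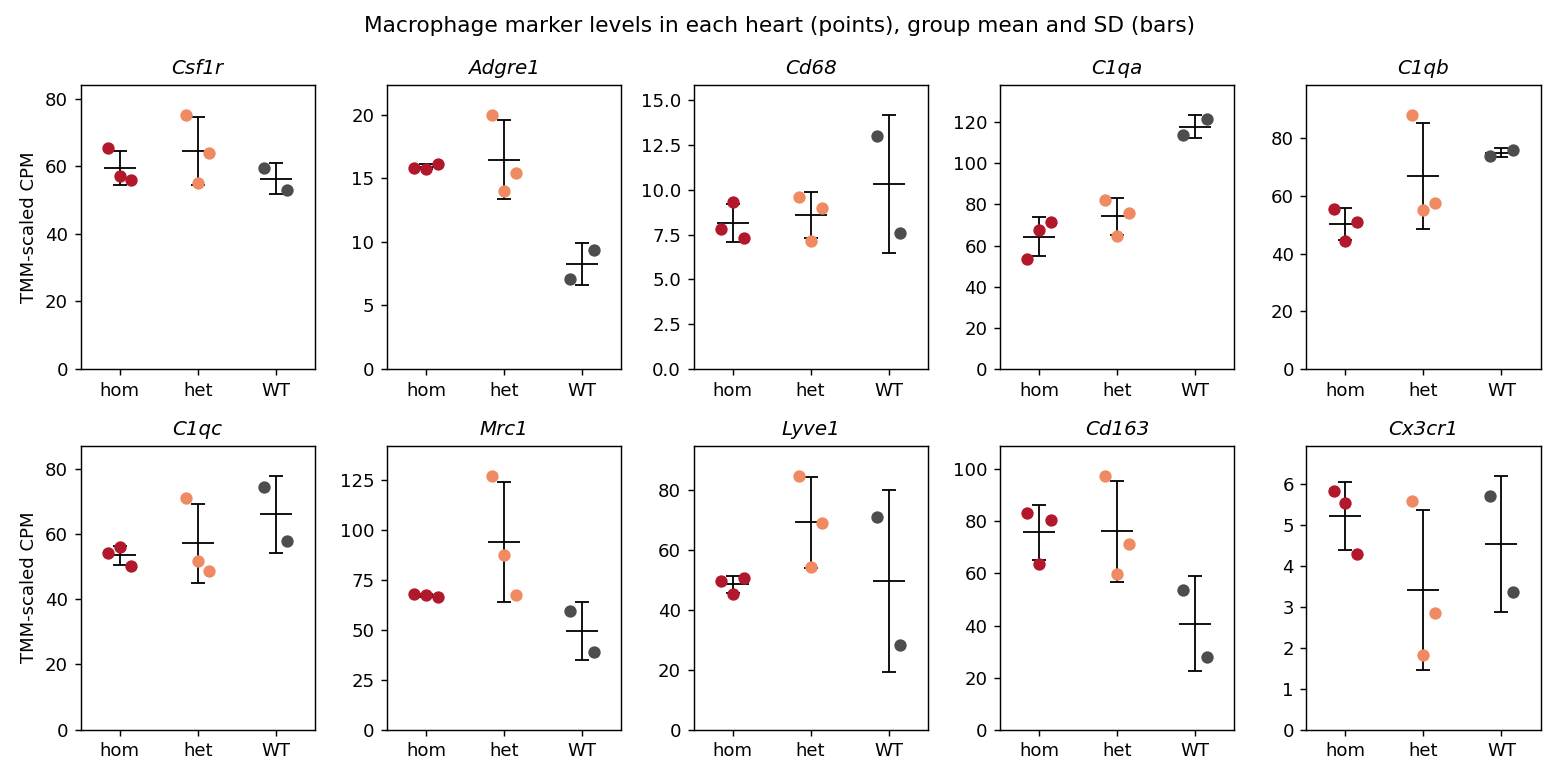
Level of each marker in every heart, in TMM-scaled CPM from 0, with homozygous (hom), heterozygous (het) and wild-type (WT) libraries from left to right; the horizontal bar is the group mean and the whiskers the SD. Adgre1 lies between 14.0 and 20.0 CPM in all 6 deletion hearts and at 7.06 and 9.39 CPM in wild type, while C1qa lies between 53.5 and 82.1 CPM in deletion hearts and at 114 and 122 CPM in wild type.

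Csf1r encodes the receptor for CSF1 and IL-34 on which macrophage survival depends. It had 65.4, 57.3 and 56.0 CPM in homozygous, 75.1, 55.0 and 64.0 CPM in heterozygous and 59.7 and 53.1 CPM in wild-type hearts. The groups overlapped throughout, and Csf1r had the narrowest range of the 10, its highest library being 1.42 times its lowest. Its log2 fold change against wild type was 0.08 in homozygous (SE 0.15, adjusted p = 0.729) and 0.20 in heterozygous hearts (SE 0.15, adjusted p = 0.353). Of 5774 exonic bases of Csf1r, 873 also belong to another gene, so some of its reads could have been counted elsewhere.

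Adgre1, which encodes the F4/80 antigen used to recognise mouse macrophages, was the marker whose change held under every processing choice tried. It had 15.8, 15.8 and 16.2 CPM in homozygous, 20.0, 14.0 and 15.4 CPM in heterozygous and 7.06 and 9.39 CPM in wild-type hearts. Every deletion heart lay above both wild-type hearts, and the homozygous hearts were nearly equal to each other. On the log2 scale Adgre1 was higher by 0.95 in homozygous (SE 0.20, adjusted p = 0.00738) and by 0.999 in heterozygous hearts (SE 0.21, adjusted p = 0.00582), which is 1.93 and 1.998 times the wild-type level. Leaving out each of the 8 libraries in turn kept the call in both comparisons.

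Cx3cr1, the fractalkine receptor of monocytes and some macrophages, was the scarcest marker. It had 5.83, 5.54 and 4.28 CPM in homozygous, 5.58, 1.82 and 2.84 CPM in heterozygous and 5.71 and 3.36 CPM in wild-type hearts. All groups overlapped, and the heterozygous hearts spread by an SD of 57.1% of their mean. Fitted log2 fold changes were 0.21 in homozygous (SE 0.43, adjusted p = 0.759) and -0.42 in heterozygous hearts (SE 0.43, adjusted p = 0.501). The sign turned on leaving out wild type 2 in homozygous hearts (-0.095) and wild type 1 in heterozygous hearts (0.011). Of 4505 exonic bases of Cx3cr1, 78 are shared with other genes.

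Cd163, the scavenger receptor for haemoglobin bound to haptoglobin, had 83.1, 63.7 and 80.7 CPM in homozygous, 97.4, 59.6 and 71.3 CPM in heterozygous and 53.6 and 27.9 CPM in wild-type hearts. No deletion heart fell as low as either wild-type heart, but wild type 1 had 1.92 times the level of wild type 2. Cd163 was higher by 0.90 on the log2 scale in homozygous (SE 0.28, adjusted p = 0.0421) and by 0.90 in heterozygous hearts (SE 0.29, adjusted p = 0.0411). In homozygous hearts the call ended on leaving out wild type 2, heterozygous 3, homozygous 1 or homozygous 3 (log2 fold change 0.53 to 0.90, adjusted p 0.0572 to 0.239). In heterozygous hearts it ended without heterozygous 1, heterozygous 3, homozygous 1, homozygous 3 or wild type 2 (0.54 to 0.95, adjusted p 0.0548 to 0.229). The lowest values, 0.53 and 0.54, came from leaving out wild type 2.

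Mrc1, the mannose receptor CD206, had 68.1, 67.3 and 66.5 CPM in homozygous, 127, 87.4 and 67.8 CPM in heterozygous and 59.6 and 39.2 CPM in wild-type hearts. All deletion hearts lay above both wild-type hearts, homozygous hearts differed from each other by an SD of 1.17% of their mean, and heterozygous 1 stood far above the rest. Relative to wild type, Mrc1 was 0.93 higher on the log2 scale in heterozygous hearts (SE 0.25, adjusted p = 0.0228), and its log2 fold change in homozygous hearts was 0.45 (SE 0.25, adjusted p = 0.213). The heterozygous call ended without wild type 2 (0.69, adjusted p = 0.182). The difference between the 2 deletion genotypes was -0.48 for homozygous against heterozygous hearts (SE 0.22, adjusted p = 0.9996), so the effects are not shown to differ.

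Lyve1, a hyaluronan receptor of perivascular macrophages and also of lymphatic endothelium, had 49.5, 45.4 and 50.6 CPM in homozygous, 84.6, 54.2 and 69.0 CPM in heterozygous and 71.1 and 28.2 CPM in wild-type hearts. The wild-type hearts lay on either side of all homozygous hearts, differing 2.52 times. Over all libraries the fit gave log2 fold changes of -0.03 in homozygous (SE 0.33, adjusted p = 0.953) and 0.48 in heterozygous hearts (SE 0.33, adjusted p = 0.320). Which wild-type heart was used decided the value: without wild type 1 it was 0.79 in homozygous (adjusted p = 0.0161) and 1.30 in heterozygous hearts (adjusted p = 0.00129), and without wild type 2 it was -0.52 and -0.0089. No direction can be given for Lyve1 against wild type.

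Cd68, a heavily glycosylated protein of macrophage late endosomes and lysosomes, had 7.82, 9.34 and 7.29 CPM in homozygous, 9.62, 7.14 and 8.96 CPM in heterozygous and 13.03 and 7.59 CPM in wild-type hearts. Wild type 1 was the highest of all, wild type 2 lay among the deletion hearts, and the groups overlapped. For Cd68 the log2 fold change was -0.34 in homozygous (SE 0.26, adjusted p = 0.357) and -0.27 in heterozygous hearts (SE 0.26, adjusted p = 0.473). Without wild type 1 the sign turned, to 0.11 in homozygous and 0.18 in heterozygous hearts.

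C1qa, C1qb and C1qc encode the 3 chains that assemble into the recognition molecule of classical complement. They lie side by side on the minus strand of chromosome 4 (chr4:136880129-136898803, GENCODE vM21 on mm10), a span of 18675 bases that holds no other annotated gene. C1qa had 53.5, 67.7 and 71.4 CPM in homozygous, 82.1, 64.4 and 75.9 CPM in heterozygous and 114 and 122 CPM in wild-type hearts. All 6 deletion hearts were well below both wild-type hearts. C1qa fell by 0.88 on the log2 scale in homozygous (SE 0.15, adjusted p = 0.00269) and by 0.67 in heterozygous hearts (SE 0.15, adjusted p = 0.00867), and both calls held without each of the 8 libraries in turn.

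C1qb had 55.5, 44.5 and 51.1 CPM in homozygous, 88.0, 55.2 and 57.4 CPM in heterozygous and 74.1 and 76.1 CPM in wild-type hearts. Homozygous hearts lay below both wild-type hearts, whereas heterozygous 1 lay above them. C1qb fell by 0.58 on the log2 scale in homozygous hearts (SE 0.19, adjusted p = 0.0463), and its log2 fold change in heterozygous hearts was -0.17 (SE 0.19, adjusted p = 0.552). The homozygous call was at the edge of the threshold: it ended without heterozygous 3, any 1 of the homozygous libraries, wild type 1 or wild type 2 (log2 fold change -0.65 to -0.49, adjusted p 0.0560 to 0.214).

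C1qc had 54.2, 55.9 and 50.3 CPM in homozygous, 71.0, 51.7 and 48.7 CPM in heterozygous and 74.3 and 57.7 CPM in wild-type hearts. Homozygous hearts lay just below wild type 2 and heterozygous hearts overlapped wild type. C1qc did not pass the test, at log2 fold changes of -0.30 in homozygous (SE 0.17, adjusted p = 0.219) and -0.21 in heterozygous hearts (SE 0.17, adjusted p = 0.404). Although the 3 chains are needed in equal numbers, their counts did not keep 1 ratio: C1qa counts were 0.986 to 1.42 times those of C1qc in homozygous, 1.16 to 1.56 times in heterozygous and 1.53 to 2.11 times in wild-type hearts. The C1qb to C1qc ratio was 0.796 to 1.02 in homozygous, 1.07 to 1.24 in heterozygous and 0.997 to 1.32 in wild-type hearts.

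No marker passed the test between homozygous and heterozygous hearts. By edgeR 0 of 10 were called, against 0.00% of all genes. Of the markers 1 had an unadjusted p under 0.05. Over all 15075 genes 411 had an unadjusted p under 0.05, limma-voom called 0 genes, and DESeq2 called 3 (Cyr61, Irs2 and Hsp90aa1, named after their values were seen), none of them a marker. The mean of 9 of 10 markers was lower in homozygous than in heterozygous hearts, Cx3cr1 being the exception. That count leaned on heterozygous 1. Without it the log2 fold change turned positive for Adgre1 (0.11), C1qc (0.091), Cd163 (0.21), Cd68 (0.020) and Csf1r (0.00264). Over all 8 libraries the median log2 fold change of the markers was -0.11, against -0.00 over all genes. The libraries of the 2 groups did not overlap for 1 of 10 markers, Lyve1, where heterozygous hearts were higher (log2 fold change -0.51, SE 0.30, adjusted p = 0.9996). Of all tested genes, 11.3% did not overlap in this way.

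**Figure D2:**
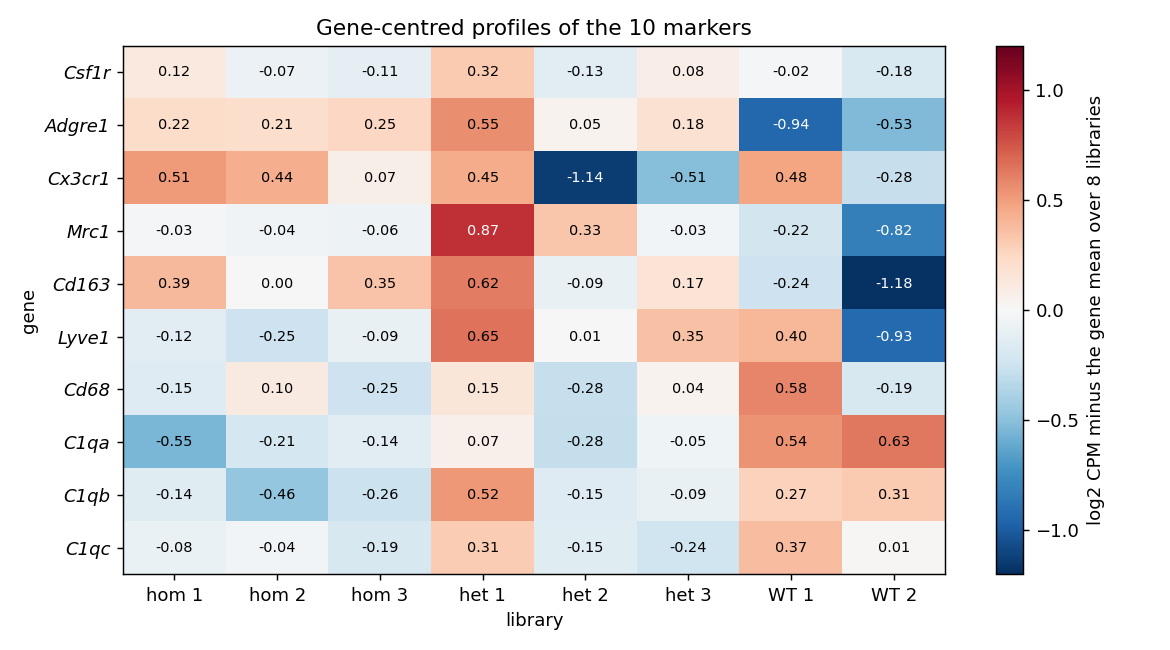
Gene-centred profiles: each cell is the log2 CPM of a marker (row) in a library (column; homozygous, heterozygous, then wild type) minus that marker's mean over the 8 libraries. Heterozygous 1 is above the mean for every marker, and wild type 2 is the lowest library for Csf1r, Mrc1, Lyve1 and Cd163 but the highest for C1qa.

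Single libraries stood apart for several markers. Heterozygous 1, the shallowest library and the only heterozygous one with low Xist, was the highest of the 8 for 6 of 10 markers. Among them were Mrc1 at 127 CPM and Cd163 at 97.4 CPM. It also held the highest value for 4 of 15 pan-leukocyte and myeloid genes, and wild type 2 did for 6 of them. Wild type 2, the only wild-type library with abundant Xist, was the lowest library for 4 of 10 markers. For heterozygous 1 and wild type 2, sex cannot be told apart from the single library. The mean centred log2 level of the 10 markers was 0.02, -0.03 and -0.04 in homozygous, 0.45, -0.18 and -0.01 in heterozygous and 0.12 and -0.32 in wild-type hearts. Homozygous hearts had a smaller SD relative to the mean than heterozygous hearts for 9 of 10 markers. Heterozygous 1 was the highest heterozygous library for every marker. These counts of highest and lowest libraries and of SD were not made over all tested genes, so they are not shown to be particular to the markers. What part heterozygous 1 and wild type 2 have in the group means beyond the values without them was not tested.

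Likeness between 2 profiles was measured as the root mean square difference of centred log2 CPM over the 8 libraries. The difference was smallest for Cd68 and C1qc (0.17), followed by Csf1r and C1qc (0.21) and C1qb and C1qc (0.21). Among the tissue-resident receptors, Mrc1 differed from Lyve1 and from Cd163 by 0.31 each. Among 13100 other genes of at least 1 CPM, Rcan1, Exosc7, Crls1, BC029722 and Tgfbr2 had the centred profiles nearest to the mean of the 10 markers, with root mean square differences of 0.0833 to 0.0905. Markers that moved in opposite directions partly cancel in that mean (Adgre1 and C1qa differed by 0.78). Nearness to the mean is therefore not likeness to any single marker.

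Set against Csf1r within the same library, which removes any library scaling, Adgre1 counts were 0.242 to 0.289 of Csf1r counts in homozygous, 0.241 to 0.266 in heterozygous and 0.118 to 0.177 in wild-type hearts. The deletion and wild-type ranges did not overlap. Overlap of ratios to Csf1r was not counted over all tested genes, so its absence is not shown to be particular to the markers. C1qa counts were 0.818 to 1.28 times those of Csf1r in homozygous, 1.09 to 1.19 times in heterozygous and 1.91 to 2.29 times in wild-type hearts, again with no overlap and in the opposite direction. Cd163 counts were 1.11 to 1.44 times those of Csf1r in homozygous, 1.08 to 1.30 times in heterozygous and 0.525 to 0.898 times in wild-type hearts. Lyve1 to Csf1r spanned 0.757 to 0.904 in homozygous, 0.986 to 1.13 in heterozygous and 0.532 to 1.19 in wild-type hearts, so wild type enclosed both. Mrc1 to Csf1r was 1.04 to 1.19 in homozygous, 1.06 to 1.69 in heterozygous and 0.738 to 0.999 in wild-type hearts. For Cd68 to Csf1r the ranges were 0.120 to 0.163, 0.128 to 0.140 and 0.143 to 0.218, with homozygous overlapping wild type. For Cx3cr1 to Csf1r they were 0.0764 to 0.0967, 0.0330 to 0.0743 and 0.0633 to 0.0956, and both deletion groups overlapped wild type. These are ratios of counts, not per length, and serve to compare libraries.

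Levels were compared between markers as CPM per kilobase of the longest protein-coding transcript. C1qa was the highest in each genotype, with 61.8 ± 9.11 CPM per kb in homozygous, 71.3 ± 8.63 in heterozygous and 113 ± 5.26 in wild-type hearts (SD, n = 3, 3 and 2). C1qb and C1qc came next in that order. Then followed Lyve1, Cd163, Mrc1 and Csf1r, all between 6.28 and 29.3 CPM per kb, in an order that changed between genotypes. Cd68, Adgre1 and Cx3cr1 were the last 3 in each genotype. In homozygous hearts C1qb and C1qc, Cd163 and Lyve1, and Csf1r and Mrc1 were neighbours with overlapping libraries. In heterozygous hearts the overlapping neighbours were C1qa and C1qb, C1qb and C1qc, Lyve1 and Mrc1, Mrc1 and Cd163, Cd163 and Csf1r, and Cd68 and Adgre1. In wild-type hearts they were Lyve1 and Csf1r, Mrc1 and Cd163, and Cd163 and Cd68.

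The markers differ in the make-up of their transcripts. The 3 C1q transcripts are short (1040 to 1203 bases) and GC-rich (57.4% to 59.5%), in the top of the GC distribution of all genes (86.4th to 93.8th percentile). Mrc1 has 5374 bases at 43.4% GC, Cd163 4443 bases at 47.9% and Adgre1 3238 bases at 47.2%. In each library the deviation of all genes from their mean was fitted by GC content, 3′ UTR length and transcript length. For a gene with the properties of C1qa this trend gave a log2 difference of -0.65 in homozygous and -0.65 in heterozygous against wild-type hearts. For Mrc1 it gave 0.50 and 0.49, and for Adgre1 0.05 and 0.08. The measured change had the sign of the trend for 9 of 10 markers in homozygous hearts, Lyve1 being the exception. In heterozygous hearts it did for 8 of 10, the exceptions being Csf1r and Cx3cr1. This count of signs was not made over all fitted genes, so it is not shown to be particular to the markers. The trend was fitted in these same libraries, so any difference between genotypes that follows gene properties is part of it. What the trend comes from was not tested.

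**Figure D3:**
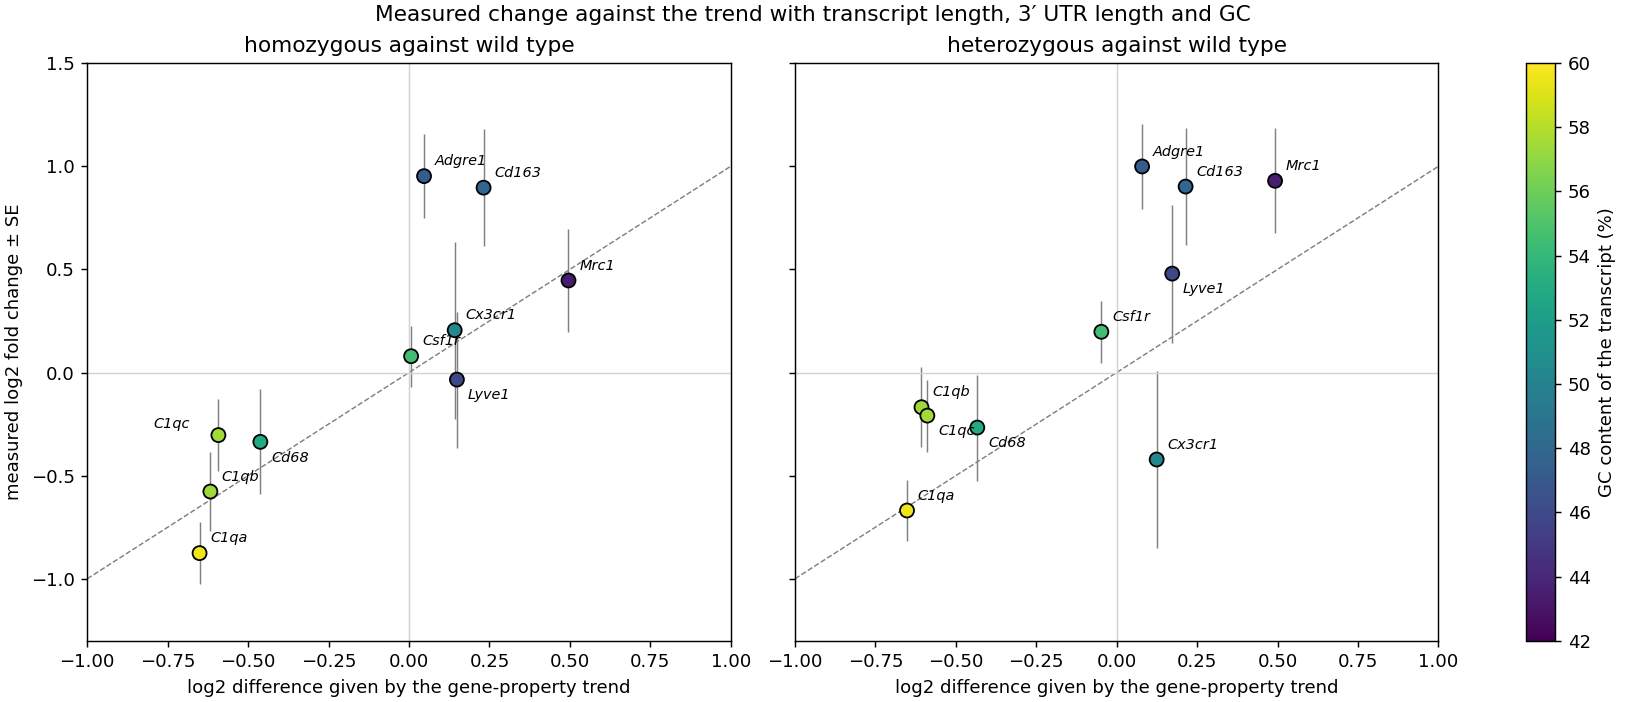
Measured log2 fold change of each marker (vertical, ± SE) against the log2 difference that the trend over all genes gives for its GC content, 3′ UTR length and transcript length (horizontal), for homozygous (left) and heterozygous (right) against wild-type hearts; colour is GC content and the dashed line marks equality. C1qa, C1qb, C1qc and Cd68 have negative trend values on the left of each panel, and Adgre1 lies far above the line at a trend value of 0.05 in homozygous and 0.08 in heterozygous hearts.

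With this trend removed, 1 of 10 markers was called in each comparison, Adgre1, against 14.3% of 13898 genes in homozygous and 13.2% in heterozygous hearts. Adgre1 was 0.93 higher on the log2 scale in homozygous (SE 0.21, adjusted p = 0.0156) and 0.94 higher in heterozygous hearts (SE 0.21, adjusted p = 0.0160). C1qa moved to -0.20 (adjusted p = 0.350) in homozygous and 0.00323 (adjusted p = 0.990) in heterozygous hearts, and C1qb to 0.064 (adjusted p = 0.852) in homozygous hearts. Mrc1 in heterozygous hearts moved to 0.48 (adjusted p = 0.204). Cd163 stayed at 0.71 (adjusted p = 0.111) in homozygous and 0.74 (adjusted p = 0.103) in heterozygous hearts, short of the threshold. The C1qa to Csf1r ratio above carries a difference in trend, which was -0.65 for C1qa and 0.0066 for Csf1r in homozygous and -0.65 and -0.048 in heterozygous hearts. For C1qc the trend was close to that of C1qa, at -0.59 in each comparison.

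**Figure D4:**
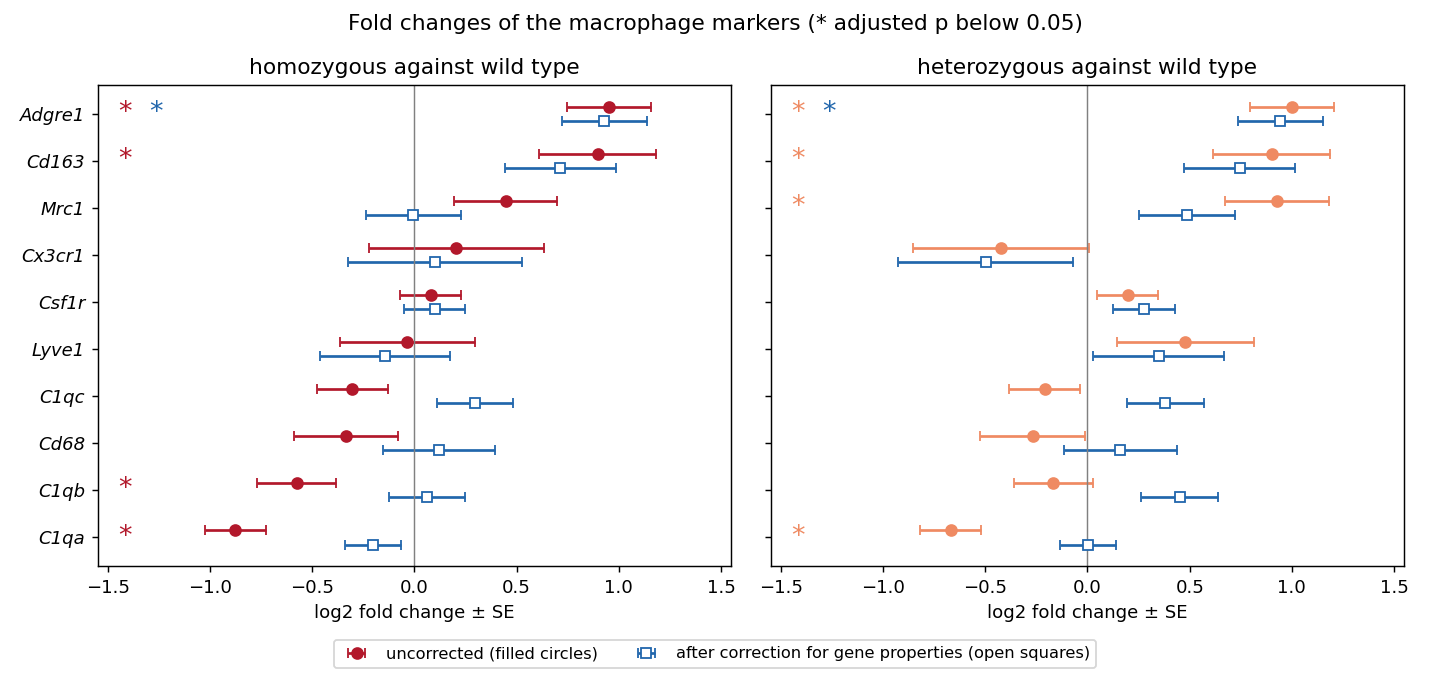
Log2 fold change (± SE of the fit) of each marker in homozygous (left) and heterozygous (right) against wild-type hearts, before (filled circles) and after (open blue squares) correction for gene properties; asterisks mark adjusted p below 0.05, in the colour of the estimate. Adgre1 is called before and after correction in both panels, whereas C1qa is at -0.88 before and -0.20 after correction on the left, and at -0.67 before and 0.00323 after it on the right.

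Of 15 pan-leukocyte and myeloid genes, 0 were higher and 2 lower in homozygous hearts by edgeR, where 7 had an unadjusted p under 0.05, DESeq2 called 4 (Laptm5, Fcer1g, Spi1 and Fcgr3) and limma-voom called 2. Of the same genes 0 were called by edgeR in heterozygous hearts (2 at an unadjusted p under 0.05, Aif1 alone by DESeq2 and 0 by limma-voom). Of all tested genes 15.3% were higher and 12.4% lower in homozygous, and 15.2% and 12.8% in heterozygous hearts. These shares are the background for this list and each that follows, and a count near them is not a result about a list. The median log2 fold change of the 15 genes was -0.34 in homozygous and -0.04 in heterozygous hearts. The 2 that fell were Spi1, which encodes PU.1, at 4.76 ± 0.511 CPM in homozygous and 8.83 ± 0.485 CPM in wild-type hearts (log2 fold change -0.89, adjusted p = 0.0445), and Fcer1g, a signalling chain of Fc receptors (log2 fold change -0.73, adjusted p = 0.0407). Neither call was firm. That of Spi1 ended without heterozygous 3 or any 1 homozygous or wild-type library (adjusted p 0.0620 to 0.124), that of Fcer1g without heterozygous 3, any 1 homozygous library or wild type 2 (0.0608 to 0.305), and both after the correction (0.411 and 0.583). Summed over the 15 genes, levels were 358 to 395 CPM in homozygous, 360 to 490 CPM in heterozygous and 393 to 425 CPM in wild-type hearts. Summed over the 10 markers they were 432 to 459, 451 to 661 and 424 to 532 CPM in the same order of genotypes, with overlap among all 3.

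Among 10 transcription factors of macrophages, 0 were higher and 3 lower in homozygous hearts, and 0 were higher and 1 lower in heterozygous hearts. The shares of all tested genes were 15.3% and 12.4% in homozygous and 15.2% and 12.8% in heterozygous hearts. Cebpb, which is also expressed in many other cell types, had 103, 110 and 93.2 CPM in homozygous, 116, 125 and 104 CPM in heterozygous and 200 and 192 CPM in wild-type hearts. It fell by 0.94 in homozygous (adjusted p = 0.000701) and by 0.77 in heterozygous hearts (adjusted p = 0.00181) on the log2 scale. Both calls held without each library in turn and ended after the correction (adjusted p = 0.0781 and 0.413). The other 2 were Spi1 and Cebpa, whose adjusted p of 0.0490 in homozygous hearts passed above the threshold without heterozygous 1, heterozygous 3, wild type 1 or any 1 homozygous library (0.0620 to 0.280) and after the correction (0.454).

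Ligands of the marker receptors were measured too. Csf1, the main CSF1R ligand, averaged 49.9 ± 4.29 CPM in homozygous, 45.4 ± 13.6 CPM in heterozygous and 46.0 ± 16.5 CPM in wild-type hearts, and was not called (adjusted p = 0.766 and 0.962 against wild type). Il34, the other CSF1R ligand, was not called either (adjusted p = 0.538 and 0.202). Cx3cl1, the ligand of CX3CR1, was lower in homozygous (log2 fold change -0.95, adjusted p = 0.0281) and heterozygous hearts (-0.85, adjusted p = 0.0451). Leaving out wild type 2, homozygous 1 or homozygous 3 ended the homozygous call (adjusted p 0.0920 to 0.385), and the heterozygous call ended without any 1 heterozygous library, homozygous 1, homozygous 3 or wild type 2 (0.0605 to 0.519). Both calls of Cx3cl1 also ended after the correction (0.112 and 0.211).

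Of 16 genes known from long-lived resident macrophages, 0 were higher and 1 lower in homozygous and 1 higher and 2 lower in heterozygous hearts. Over all tested genes the shares were 15.3% and 12.4% in homozygous and 15.2% and 12.8% in heterozygous hearts. Stab1, a scavenger receptor also found on endothelium, was lower in homozygous (log2 fold change -0.54, adjusted p = 0.0148) and heterozygous hearts (-0.41, adjusted p = 0.0461). Leaving out wild type 1 or homozygous 3 ended the homozygous call (adjusted p 0.0534 to 0.0644), and the heterozygous call without any 1 library other than wild type 2 (0.0573 to 0.183). In heterozygous hearts F13a1, a coagulation factor chain made by macrophages, was higher (0.84, adjusted p = 0.0402), and Cbr2, a carbonyl reductase, was lower (-0.73, adjusted p = 0.0434). F13a1 lost its call without heterozygous 1 or 3, any 1 homozygous library or wild type 2 (0.0527 to 0.220), and Cbr2 without any 1 homozygous or wild-type library (0.0640 to 0.210). After the correction the heterozygous calls of Stab1 (adjusted p = 0.0758), F13a1 (0.141) and Cbr2 (log2 fold change -0.13, adjusted p = 0.760) ended too. Of 15 scavenger and phagocytic receptors, 1 was higher and 1 lower in each comparison, beside the same shares of all genes. Cd36, the fatty acid translocase, which heart muscle and capillaries also express, averaged 2887 ± 241 CPM in homozygous, 3136 ± 775 CPM in heterozygous and 1630 ± 30.0 CPM in wild-type hearts, and Stab1 was the one that fell. Cd36 was called in both (log2 fold change 0.83, adjusted p = 0.0112, and 0.94, adjusted p = 0.00601), and not after the correction (0.182 and 0.121). Of 10 tested genes of monocytes and recruited macrophages, 0 were called by edgeR in either comparison. In homozygous hearts 2 had an unadjusted p under 0.05 and DESeq2 and limma-voom called 1 each. The DESeq2 gene was Lgals3, just short of the threshold by edgeR (log2 fold change -1.01, adjusted p = 0.0513). In heterozygous hearts 1 had an unadjusted p under 0.05, DESeq2 called 1 and limma-voom called 0. The DESeq2 gene there was Vcan (by edgeR 1.11, adjusted p = 0.0569). Over all 13 listed genes the summed level was 92.1 to 144 CPM in homozygous, 128 to 160 CPM in heterozygous and 98.8 to 165 CPM in wild-type hearts. Fn1 and Vcan made up most of it in every library (118 and 33.3 CPM in wild type 1, 52.8 and 29.8 CPM in homozygous 3). The sum therefore mainly follows these 2 genes and is not a level of monocytes.

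Downstream of C1q, 16 complement genes were followed, of which 2 were higher and 4 lower in homozygous and 2 higher and 5 lower in heterozygous hearts. Beside them, 15.3% and 12.4% of all tested genes were called in homozygous and 15.2% and 12.8% in heterozygous hearts. C4b, the C4 component cleaved by the C1 complex, had 11.3, 8.19 and 9.74 CPM in homozygous, 13.3, 5.82 and 8.62 CPM in heterozygous and 24.8 and 46.0 CPM in wild-type hearts. It fell by 1.87 in homozygous (adjusted p = 0.00414) and by 1.94 in heterozygous hearts (adjusted p = 0.00328) on the log2 scale. C1ra, a protease of the C1 complex that many stromal cells make, averaged 13.8 ± 3.59 CPM in homozygous, 13.1 ± 0.574 CPM in heterozygous and 28.0 ± 2.02 CPM in wild-type hearts, and fell by 1.01 (adjusted p = 0.00531) and 1.09 (adjusted p = 0.00360). C4b and C1ra kept their calls in both comparisons under every processing choice and without each library in turn. C1s1, the partner protease, was at -0.73 (adjusted p = 0.0288) in homozygous and -0.81 (adjusted p = 0.0190) in heterozygous hearts, and Serping1, the C1 inhibitor, at -0.64 (adjusted p = 0.0225) and -0.67 (adjusted p = 0.0183). C1s1 lost its call in homozygous hearts on leaving out wild type 2 or homozygous 3 (adjusted p up to 0.336) and without any 1 heterozygous library or wild type 2 in heterozygous hearts (up to 0.224). Serping1 lost it without homozygous 2, homozygous 3 or wild type 1 (up to 0.116) in homozygous hearts and without heterozygous 2 or wild type 1 (up to 0.0926) in heterozygous hearts, and in both after the correction (0.362 and 0.273). The 2 that were higher were C3, the central component (log2 fold change 1.11, adjusted p = 0.0341, in homozygous and 1.46, adjusted p = 0.0120, in heterozygous hearts), and Cr1l, a regulator of C3 in rodents (0.38, adjusted p = 0.0324, and 0.46, adjusted p = 0.0158). The level of C3 was higher in wild type 1 (98.7 CPM) than in wild type 2 (42.003 CPM), and with wild type 1 left out the log2 fold change was 1.86 in homozygous and 2.20 in heterozygous hearts. In homozygous hearts C3 lost its call under 4 other processing choices and without homozygous 1, homozygous 2 or wild type 2 (0.0781 to 0.103), and Cr1l without any 1 homozygous library or wild type 2 (0.0507 to 0.103). In heterozygous hearts Cr1l lost it without heterozygous 2 (0.0514), and after the correction Cr1l was called in neither comparison (0.258 and 0.186). C1qbp, a largely mitochondrial protein that binds C1q, was the fifth that fell in heterozygous hearts (-0.43, adjusted p = 0.0286), a call that ended without heterozygous 1, heterozygous 2, homozygous 3 or wild type 2 (0.0514 to 0.189) and after the correction (0.886).

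Lysosomal genes, which macrophages share with all cells, included 1 higher and 4 lower of 18 in homozygous and 1 higher and 5 lower in heterozygous hearts. All tested genes had shares of 15.3% and 12.4% in homozygous and 15.2% and 12.8% in heterozygous hearts. Lamp2, a lysosomal membrane protein abundant in heart muscle, averaged 298 ± 27.5 CPM in homozygous, 319 ± 16.3 CPM in heterozygous and 140 ± 19.2 CPM in wild-type hearts (log2 fold change 1.10, adjusted p = 0.000702, and 1.19, adjusted p = 0.000483). Ctsz, a cathepsin, fell by 1.10 (adjusted p = 0.00130) and 1.03 (adjusted p = 0.00171) on the log2 scale. Ctsa, a protective carboxypeptidase, fell by 0.55 (adjusted p = 0.00527) and 0.62 (adjusted p = 0.00277), and Neu1, the sialidase it protects, by 0.60 (adjusted p = 0.00607) and 0.50 (adjusted p = 0.0127). These 4 kept their calls without each library in turn. After the correction Lamp2 and Ctsa were called in both comparisons, Ctsz in homozygous hearts alone (adjusted p = 0.0311, and 0.0603 in heterozygous hearts) and Neu1 in neither (0.186 and 0.547). The others that fell were Npc2 (-0.65 and -0.56) and, in heterozygous hearts, Grn (-0.46, adjusted p = 0.0382). Npc2 lost its call without homozygous 2, homozygous 3 or wild type 2 in homozygous hearts (0.0525 to 0.190) and without any 1 heterozygous library or wild type 2 in heterozygous hearts (0.0501 to 0.371), where it also ended after the correction (0.0780). Grn lost it without heterozygous 1 or 2, homozygous 2 or 3, or wild type 1 (0.0507 to 0.168) and after the correction (0.918).

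Since LYVE1 also marks lymphatic vessels, 9 lymphatic endothelial genes were tested beside Lyve1. Of these 1 was higher and 2 lower in homozygous and 1 higher and 1 lower in heterozygous hearts. For all tested genes the shares were 15.3% and 12.4% in homozygous and 15.2% and 12.8% in heterozygous hearts. Prox1, the lymphatic master regulator, which cardiomyocytes also express, averaged 37.4 ± 3.21 CPM in homozygous, 30.5 ± 6.29 CPM in heterozygous and 9.77 ± 0.787 CPM in wild-type hearts (log2 fold change 1.93, adjusted p = 0.000229, and 1.64, adjusted p = 0.000421). Those that fell were Gja4, a connexin of vessels (-1.13, adjusted p = 0.00261, and -1.12, adjusted p = 0.00253), and, in homozygous hearts, Foxc2, a factor of lymphatic valves (-1.35, adjusted p = 0.0203). Foxc2 lost its call without homozygous 3 or wild type 1 (0.0645 to 0.0647), and both genes after the correction (adjusted p = 0.0549 and 0.0699 for Gja4 and 0.0994 for Foxc2). Flt4, the lymphatic VEGF-C receptor, was not called (-0.38, adjusted p = 0.0878, and -0.30, adjusted p = 0.170). Their summed level was 306 to 355 CPM in homozygous, 311 to 332 CPM in heterozygous and 271 to 305 CPM in wild-type hearts. Itga9 and Nrp2 made up most of it in every library (136 and 69.0 CPM in wild type 1, 152 and 86.9 CPM in homozygous 1). The sum is therefore not a level of lymphatic endothelium. Both deletion groups had higher means than wild type for Prox1, Nrp2 and Itga9, and lower ones for Gja4, Foxc2, Flt4, Pdpn and Reln. The part of these genes in the Lyve1 values was not tested.

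Genes of other leukocytes were at low levels. Summed levels over all 8 libraries were 1.95 to 4.41 CPM for 7 T cell genes, 0.408 to 2.77 CPM for 5 B cell genes, 0.998 to 3.05 CPM for 6 NK cell genes and 1.47 to 5.93 CPM for 7 neutrophil genes, with Ly6g at 0 counts in every library. Mast cell genes summed to 10.8 to 19.4 CPM and dendritic cell genes to 23.6 to 33.2 CPM. Of 28 tested genes of these 6 lists, 0 were called by edgeR, DESeq2 or limma-voom in homozygous hearts, where 2 had an unadjusted p under 0.05. In heterozygous hearts edgeR called 1, Zbtb46, a dendritic cell factor that endothelium also expresses (log2 fold change 0.62, adjusted p = 0.0420). That call ended without heterozygous 2, heterozygous 3, any 1 homozygous or any 1 wild-type library (adjusted p 0.0622 to 0.125) and after the correction (0.185).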

How the data were processed

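Bulk RNA of 8 hearts was sequenced on an Illumina HiSeq from TruSeq libraries, per the labels' protocols. The table deposited by the authors gives unnormalized counts for each gene symbol, with 1 column per library. The submitters' processing notes name mm10, featureCounts, Subread, HISAT2, Trimmomatic 0.36 and DESeq2, with annotation and strand setting not given in the sources used here, and the submitters state that the wild-type reads were lost, so those counts cannot be remade.

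Genes were kept by filterByExpr on genotype (15075 genes, 61.5%), scaled by TMM and tested in 1 robust quasi-likelihood fit of edgeR 4.0.16 (R 4.3.3) over all 8 libraries, two-sided, with Benjamini-Hochberg adjustment and a threshold of 0.05. Log2 CPM for profiles used a prior count of 2. Alternatives changed scaling, filter, tool (DESeq2 1.42.0, limma-voom 3.58.1), robustness, samples, replicate block, a sex term read from Xist (split at 100 CPM) and each library in turn. A further one removed, per library, splines (4 df each) of GC content, log2 3′ UTR length and log2 transcript length, from GENCODE vM21, which held 96.9% of the symbols. The fits were tested on simulated data that gave all 8 libraries 1 dispersion per gene. Such data cannot test the larger difference between the wild-type libraries. The markers, gene lists and alternatives were chosen with earlier results of these data known. Named were all markers, up to 4 genes per list by smallest p in homozygous against wild-type hearts (others where a count would stay unnamed, after their values were seen) and the 5 nearest profiles. Selenop was listed as Sepp1.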

Additional observations from a re-analysis of the deposited data

How the results depend on the processing

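In each comparison with wild type, 1 of the 4 called markers, Adgre1, kept its call under all alternatives and without each library. The correction for gene properties lowered the called markers to 1 in homozygous and 1 in heterozygous hearts and all called genes to 1981 and 1835. After it the sign turned for C1qb (0.064), C1qc (0.30), Cd68 (0.12), Mrc1 (-0.0057), C1qbp (0.14) and Grn (0.087) in homozygous hearts. In heterozygous hearts it turned for C1qa (0.00323), C1qb (0.45), C1qc (0.38), Cd68 (0.16), C1qbp (0.034), Cebpa (0.20), Fcer1g (0.14) and Spi1 (0.013). Fitting only the groups compared gave 2668 genes and 2 markers in heterozygous hearts. Without each library in turn, 2135 to 5717 genes and 2 to 4 markers were called in homozygous hearts and 2359 to 5634 genes and 2 to 5 markers in heterozygous hearts; the lowest gene counts came without wild type 2 (2135 and 2359), and without homozygous 3 the homozygous count was 2564. For homozygous against heterozygous hearts, 2 genes were called with no low-count filter (Cyr61 and Irs2), 3 by DESeq2 and 0 to 1 without a library (Nxpe4), none a marker.

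Leaving out a library gave log2 ranges that crossed 0, in homozygous against wild-type hearts, for Cd68 (-0.64 to 0.11), Cx3cr1 (-0.095 to 0.64) and Lyve1 (-0.52 to 0.79). In heterozygous hearts they did for Cd68 (-0.58 to 0.18), Cebpa (-0.44 to 0.067), Cx3cr1 (-0.93 to 0.011) and Lyve1 (-0.0089 to 1.30). In homozygous against heterozygous hearts they did for Adgre1 (-0.15 to 0.11), C1qc (-0.20 to 0.091), Cd163 (-0.16 to 0.21), Cd68 (-0.19 to 0.020) and Csf1r (-0.23 to 0.00264). The upper end of each of these came without heterozygous 1. Without a wild-type library the other is assumed to vary like the deletion groups. Lyve1 in homozygous hearts was 0.12 by limma-voom, Csf1r was -0.00152 under upper quartile factors, and Cd163 in homozygous against heterozygous hearts was 0.00841 with no filter and 0.021 by limma-voom. Upper quartile factors moved the median of all genes to -0.11 in each comparison with wild type and the higher share of called genes to 43.8% in homozygous (55.2% by TMM) and 43.7% in heterozygous hearts (54.4%). They also ended the calls of Cd163, as did total counts without a TMM factor and leaving out the low-count filter, in both comparisons. Fitting only the groups compared ended the heterozygous call of Cd163 too. A sex term kept all 4 calls of markers in each comparison.

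Whether the replicate numbers pair the samples was not settled. Deviations of same-numbered homozygous and heterozygous libraries correlated at 0.18, 0.14 and -0.02, and those of differently numbered ones at -0.23 to 0.13. In every genotype the library numbered 1 was low and the library numbered 2 high in Xist, so number and sex partly coincide. With the number as a replicate block, 3328 genes were called in homozygous and 3376 in heterozygous against wild-type hearts. C1qb was then at -0.55 (adjusted p = 0.0582) in homozygous hearts, Lyve1 at 0.079, and Cd163 at 0.019 in homozygous against heterozygous hearts. The block also ended calls of other named genes, in homozygous hearts C1s1, Cr1l, Cebpa, Fcer1g and Spi1 (adjusted p 0.0548 to 0.101) and in heterozygous hearts Cx3cl1, Npc2, Stab1 and Zbtb46 (0.0595 to 0.117). The cause of these shifts was not tested. With 2 wild-type libraries that differ more than the others, adjusted p-values against wild type may be too small. Of the markers, Cx3cr1 had the lowest level and the largest SE (0.43).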
